A study of Mus musculus with 16 samples.

Results

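The comparison set the 8 arrays whose titles end in 3 or 4 against the 8 arrays whose titles end in 1 or 2, over all 16 arrays of the series. Each array held total RNA of the left femur, its distal 5 mm, from 1 ovariectomized female C57BL/6 mouse, and no RNA was pooled. The 4 groups held 4 mice each: WT-OVX (wild type, vehicle), WT-E2-4hr (wild type, estrogen 4 hours before the bone was taken), ERaKO-OVX (estrogen receptor alpha deleted in osteoclasts, vehicle per the series design text) and ERaKO-E2-4hr (the same knockout, estrogen). Each group gave 2 arrays to replicates 3 and 4 and 2 arrays to replicates 1 and 2, so genotype and treatment were balanced between the sets. The sources used here do not give the driver of the osteoclast deletion, the age of the mice, the estrogen compound and dose or the cleaning of the bones. The labels give the number in the title and do not say what it stands for, and each mouse is 1 replicate. The division was taken up because earlier work on these data had shown muscle genes to differ by it, so the muscle difference is a description of its extent and not independent evidence.

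A femur is wrapped in skeletal muscle, tendon, fascia and fat, and its distal end carries the knee joint cartilage and synovium and the growth plate. Inside lie bone cells, vessels and the blood-forming marrow. Muscle fibres hold very abundant transcripts for contractile filaments, for calcium release and reuptake, and for fuel use, and many of these proteins have a muscle form encoded by a gene other than the one most cells use. Osteoclasts, the multinucleate cells that resorb bone, are marked by acid secretion, cathepsin K and genes of cell fusion, and osteoblasts and osteocytes by genes of mineralized matrix.

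Signals are linear array intensities. A log2 difference is replicates 3 and 4 minus replicates 1 and 2 on the log2(signal + 16) scale, with its SE, from a limma fit with the 4 groups and the set as terms, and a gene passed at an adjusted p under 0.05. Of 12736 genes tested, 1169 (9.18%) were higher and 1195 (9.38%) lower in replicates 3 and 4. With no overlap between the 8 and the 8 arrays, 175 genes (1.37%) were higher and 299 (2.35%) lower. The directions differed in size: past 1 on the log2 scale lay 114 higher and 407 lower genes, and past 3 lay 1 higher and 77 lower genes. The median over all tested genes was 0.03. The first principal component, after the group means were taken out, held 46.5% of the variance and ran from 17.5 to 43.6 in replicates 3 and 4 and from -61.0 to -13.4 in replicates 1 and 2. Among 3728 probe sets without a gene name, 242 (6.49%) were higher and 187 (5.02%) lower by the same limma test.

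The arrays of the sets also differed in control measures. The 18S rRNA control probe set ran from 215 to 6608 with a median of 2814 in replicates 3 and 4, against 7798 to 30653 with a median of 14348 in replicates 1 and 2. Its log2 difference was -3.14 (exact permutation within groups, two-sided p = 0.00154, the smallest that rearranging the arrays within groups can give; adjusted p = 0.00216 over 7 measures). The mean of 9 spike-in probe sets differed by -1.07 and the Actb 3'/5' ratio, a sign of RNA or labelling quality, by -0.50, both with the same exact permutation p. That ratio ran from 1.17 to 1.25 in replicates 3 and 4 and from 1.24 to 3.53 in replicates 1 and 2. Without the 3 arrays of highest spike-in signal (WT-OVX-2, WT-E2-4hr-2 and ERaKO-E2-4hr-1) the differences were -3.21 for 18S, -0.51 for the spike-ins and -0.15 for the Actb ratio (exact permutation p = 0.00617 for each, the smallest that 162 arrangements can give). The part of these measures in the gene differences below was not tested. Without those 3 arrays 603 genes were higher and 726 lower by limma, of which 544 and 664 were among the genes called with all 16 arrays.

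**Figure D1:**
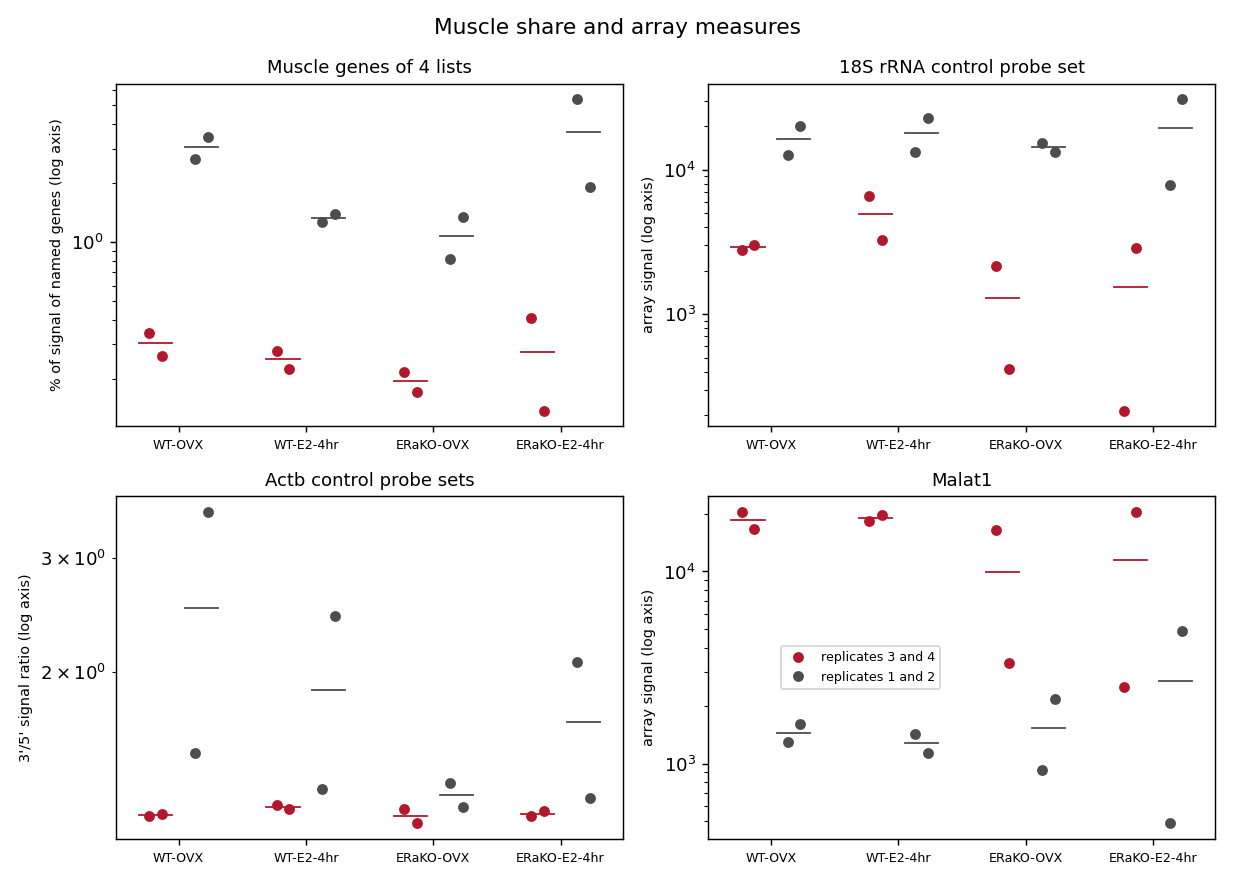
Muscle share of the signal (in % of the summed signal of named genes), 18S rRNA signal, Actb 3'/5' signal ratio and Malat1 signal on each array, by group, on log axes; points are arrays, short lines the mean of 2 arrays, red replicates 3 and 4 and grey replicates 1 and 2. The muscle share was at most 0.409% in replicates 3 and 4 and at least 0.815% in replicates 1 and 2, and the 18S signals of the sets did not overlap.

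Genes of contractile filaments were lower in replicates 3 and 4 almost throughout. The list of sarcomere genes (myosins, actins, troponins and the proteins that anchor them) held 48 tested members, of which 47 were lower and 0 higher, with a median log2 difference of -3.48. Without overlap between the sets, 42 of the 48 were lower. In 47 of 48 members the difference was negative in each of the 4 groups, against 17.0% of all tested genes. Myh1, a fast myosin heavy chain, ran from 39.2 to 996 with a median of 218 in replicates 3 and 4, against 6036 to 29915 with a median of 12050 in replicates 1 and 2. The sets lay apart on every array, and the log2 difference was -5.52 ± 0.46 (limma adjusted p = 8.51e-07). Another Myh1 probe set differed by 0.00, so the size holds for the brightest probe set. Acta1, the skeletal muscle actin, had a median of 2071 in replicates 3 and 4 and 26460 in replicates 1 and 2, a log2 difference of -3.79 ± 0.37 (limma adjusted p = 2.70e-06). Myom2, which cross-links myosin in the M-band, differed by -4.90, Mybph, a myosin-binding protein, by -4.85 and Ankrd23, a stretch-responsive ankyrin protein, by -4.76, all without overlap. The filter on low signal used the mean over all arrays, so a gene could pass through 1 set alone and then had to differ. Another 4 sarcomere genes on the array were not tested. Of the 48 that were, 15, Mybph and Ankrd23 among them, passed through replicates 1 and 2 only. This held for 7 of 22 calcium, 4 of 11 membrane, 1 of 11 regulator, 4 of 11 slow fibre, 6 of 32 glycolysis and 4 of 14 tendon genes, but for 0 of 13 fast fibre and 0 of 22 osteoclast genes. Passage through replicates 1 and 2 only also held for 2 of 72 respiratory chain genes, Cox8b and Cox7a1. The adipocyte list had 3 such genes of 19, Pck1 and Cidec among them, and the nerve list 2 of 10, Scn7a among them. The heat shock list had 1 of 14, Hspb8, and the smooth muscle list 1, Tagln. The muscle wasting and clock lists had 1 each. Passage through replicates 3 and 4 only held for 1 gene each in the heart (Nppb), keratinocyte, liver, erythroid (Xk), T and NK, clock and hypoxia lists. The list counts and medians are therefore a description of the members that passed.

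The 4 muscle lists together (filaments, calcium and excitation, membrane and nerve junction, regulators) took 0.138% to 0.409% of the signal of named genes in replicates 3 and 4, against 0.815% to 5.36% in replicates 1 and 2. The highest share was on ERaKO-E2-4hr-1 and the lowest on ERaKO-E2-4hr-4, so both ends lay in 1 group. In these bulk samples fewer cells of a type and less RNA per cell cannot be told apart. Muscle signals did not vanish in replicates 3 and 4: Pvalb, the calcium buffer of fast fibres, ran from 325 to 2237 with a median of 1009 there, against 8764 to 69832 with a median of 18542 in replicates 1 and 2.

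**Figure D2:**
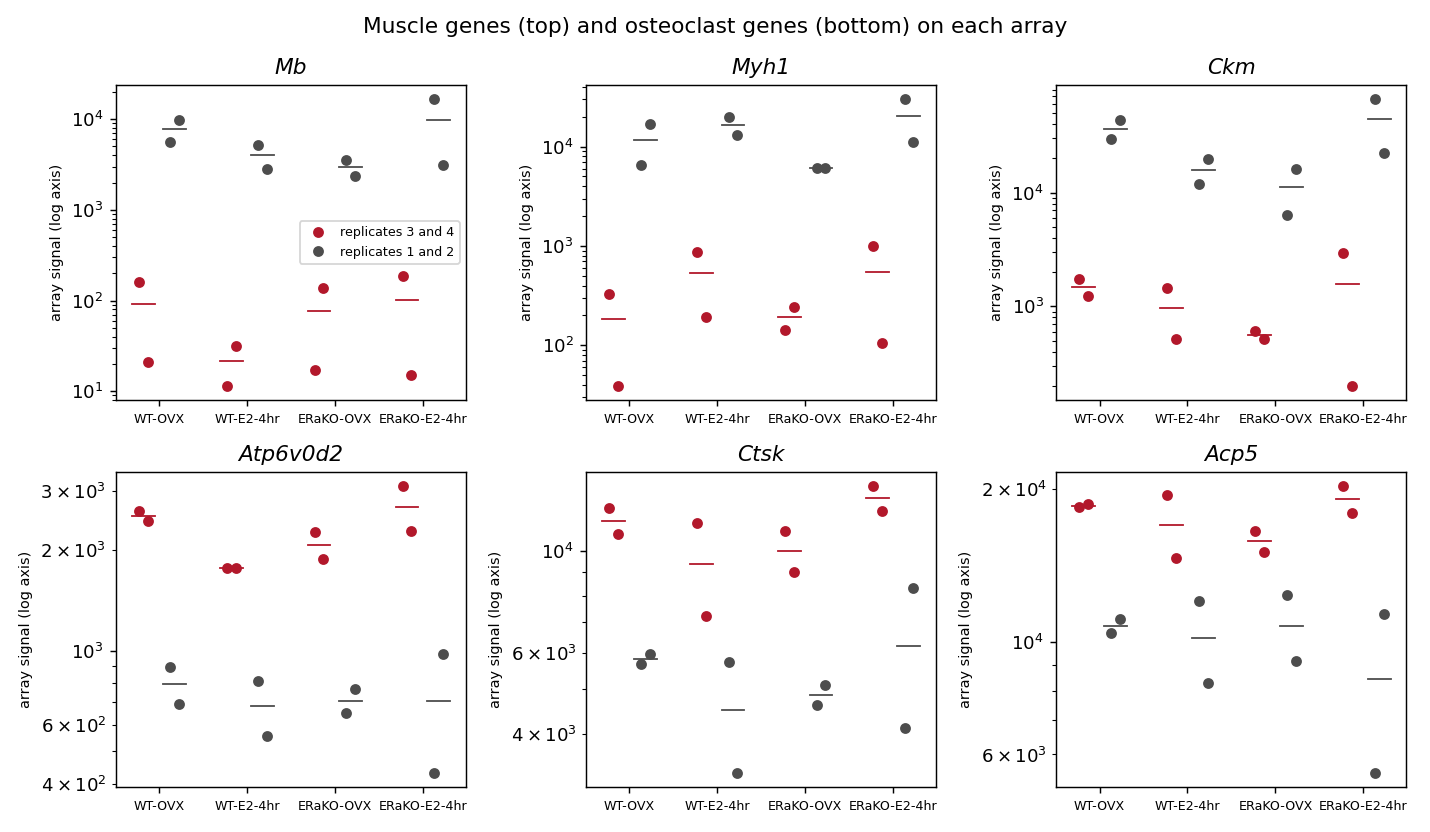
Array signal (log axes) of the muscle genes Mb, Myh1 and Ckm and of the osteoclast genes Atp6v0d2, Ctsk and Acp5, by group; points are arrays, short lines the mean of 2 arrays, red replicates 3 and 4 and grey replicates 1 and 2. Muscle genes lie lower and osteoclast genes higher in replicates 3 and 4 within every group; Mb is at most 186 there and at least 2370 in replicates 1 and 2.

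Genes of both fibre types were lower. All 13 tested fast fibre genes were lower without overlap, with a median of -4.19 and a range of -5.52 to -3.66. Of 11 slow fibre genes 8 were lower, with a median of -1.87. The difference between fibre types was not tested. Mylpf, the fast regulatory light chain, differed by -4.37 ± 0.40 and Actn3, the fast fibre alpha-actinin, by -4.44 ± 0.43, both with limma adjusted p under the threshold (1.53e-06 and 2.67e-06). Myl3, the slow and cardiac light chain, had a median of 5.48 in replicates 3 and 4 and of 750 in replicates 1 and 2. Its log2 difference was -5.31 ± 0.45 (limma adjusted p = 8.51e-07), which the added 16 understates at signals this low. Myh7, the slow myosin heavy chain, ran from 41.5 to 178 in replicates 3 and 4, against 458 to 1718 in replicates 1 and 2, a log2 difference of -2.93 ± 0.28. Tnni1, slow troponin I, differed by -3.01 ± 0.42 and its sets overlapped. Myl3, Myh7 and Tnni1 passed the filter on low signal through replicates 1 and 2 only, so they had to differ.

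Of the genes that turn an action potential into calcium release, 19 of 22 were lower and 0 higher, with a median of -2.47. Trdn, the triadin that couples the release channel to its calcium store, ran from 39.0 to 677 with a median of 70.1 in replicates 3 and 4, against 1406 to 19312 with a median of 4117 in replicates 1 and 2, a log2 difference of -5.07 ± 0.49 (limma adjusted p = 2.70e-06). Atp2a1, the calcium pump of fast fibres, differed by -3.77 ± 0.38. Genes of the fibre membrane and nerve junction moved less, with 7 of 11 lower, 1 higher and a median of -0.59. Dmd, dystrophin, differed by -1.90 ± 0.30 and Chrnb1, a subunit of the muscle acetylcholine receptor, by -1.24 ± 0.24 (limma adjusted p = 0.00253). Dmd passed the filter on low signal through replicates 1 and 2 only, so it had to differ. Chrnb1 had a mean signal of 121 in replicates 3 and 4, at the filter limit of 121.3. Another 7 genes of this list on the array were not tested. The 1 higher member was Lrp4 (1.10 ± 0.14, limma adjusted p = 5.98e-05), the agrin receptor of the nerve junction, which osteoblasts and osteocytes also carry; it was singled out after its value was seen. Without the 3 arrays brightest in spike-ins 4 members of this list were lower. Of 11 myogenic regulators tested (of 16 on the array) 3 were lower, with Myf6, the regulator kept in mature fibres, which passed the filter through replicates 1 and 2 only, at -2.91 ± 0.39 (median 38.0 in replicates 3 and 4 and 328 in replicates 1 and 2). Mef2c, which bone and B cells use as well, differed by -0.56 ± 0.18 with overlap.

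The heart list, kept as a check on the muscle type, had 5 tested members of 14, with 2 lower and 1 higher. Actc1, cardiac actin, which skeletal muscle also makes, differed by -3.67 ± 0.32, and Nppb, a natriuretic peptide, by 0.82 ± 0.26 (limma adjusted p = 0.0403), a call lost without the 3 arrays brightest in spike-ins (0.61). In the smooth muscle and pericyte list 4 of 11 were lower with a median of -0.40, led by Synpo2 (-3.35 ± 0.34), which striated muscle also uses, and Tagln (-1.64 ± 0.40). Acta2, smooth muscle actin, ran from 1447 to 2183 in replicates 3 and 4 and from 1707 to 5293 in replicates 1 and 2, a log2 difference of -0.63 ± 0.16.

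Genes of fuel use were lower too. In the list of glycogen, glycolysis and phosphagen genes 22 of 32 were lower and 1 higher, with a median of -1.22. Mb, myoglobin, the oxygen store of fibres, ran from 11.5 to 186 with a median of 26.3 in replicates 3 and 4, against 2370 to 16557 with a median of 4368 in replicates 1 and 2. Its log2 difference of -6.27 ± 0.46 (limma adjusted p = 4.14e-07) was the largest fall of all tested genes, while a second Mb probe set differed by 0.77, so the 2 probe sets disagree. Ckm, the muscle creatine kinase, ran from 201 to 2940 in replicates 3 and 4 and from 6383 to 65893 in replicates 1 and 2, with medians of 924 and 20823 and a log2 difference of -4.60 ± 0.43. Ampd1, the muscle AMP deaminase, differed by -5.25 ± 0.37 and Ckmt2, the sarcomeric mitochondrial creatine kinase, by -4.57 ± 0.31. Mb, Ampd1 and Ckmt2 passed the filter on low signal through replicates 1 and 2 only, so they had to differ. The member that was higher was Pgam1 (0.53 ± 0.15, limma adjusted p = 0.0240), the form of phosphoglycerate mutase used outside muscle.

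Of 72 respiratory chain genes 46 were lower and 0 higher, with a median of -0.51. Cox8b and Cox7a1, the heart and muscle forms of cytochrome oxidase subunits, differed by -5.46 ± 0.46 and -3.55 ± 0.38, while Atp5e, an ATP synthase subunit found in all cells, differed by -1.17 ± 0.19, all without overlap. Cox8b and Cox7a1 passed the filter on low signal through replicates 1 and 2 only, so they had to differ. The count of lower genes depended on scaling and arrays: 35 were lower under quantile normalization and 24 without the 3 arrays brightest in spike-ins. In the list of pyruvate and tricarboxylic acid cycle genes 7 of 24 were lower, with Pdk4, the kinase that spares glucose in fasting muscle, at -2.12 ± 0.40. Among fatty acid genes 6 of 22 were lower, with Fabp3, the muscle fatty acid binding protein, at -2.19 ± 0.29 and Ucp3, an uncoupling protein of muscle, at -1.40 ± 0.27. A second Fabp3 probe set differed by 0.08. In the muscle wasting and FoxO list 5 of 12 were lower, with a median of -0.46. Trim63, the ubiquitin ligase MuRF1, which marks fibres breaking down protein, ran from 4.58 to 1362 with a median of 70.2 in replicates 3 and 4, against 331 to 6078 with a median of 1005 in replicates 1 and 2 (log2 difference -3.55 ± 0.53, limma adjusted p = 2.68e-04), and its sets overlapped.

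**Figure D3:**
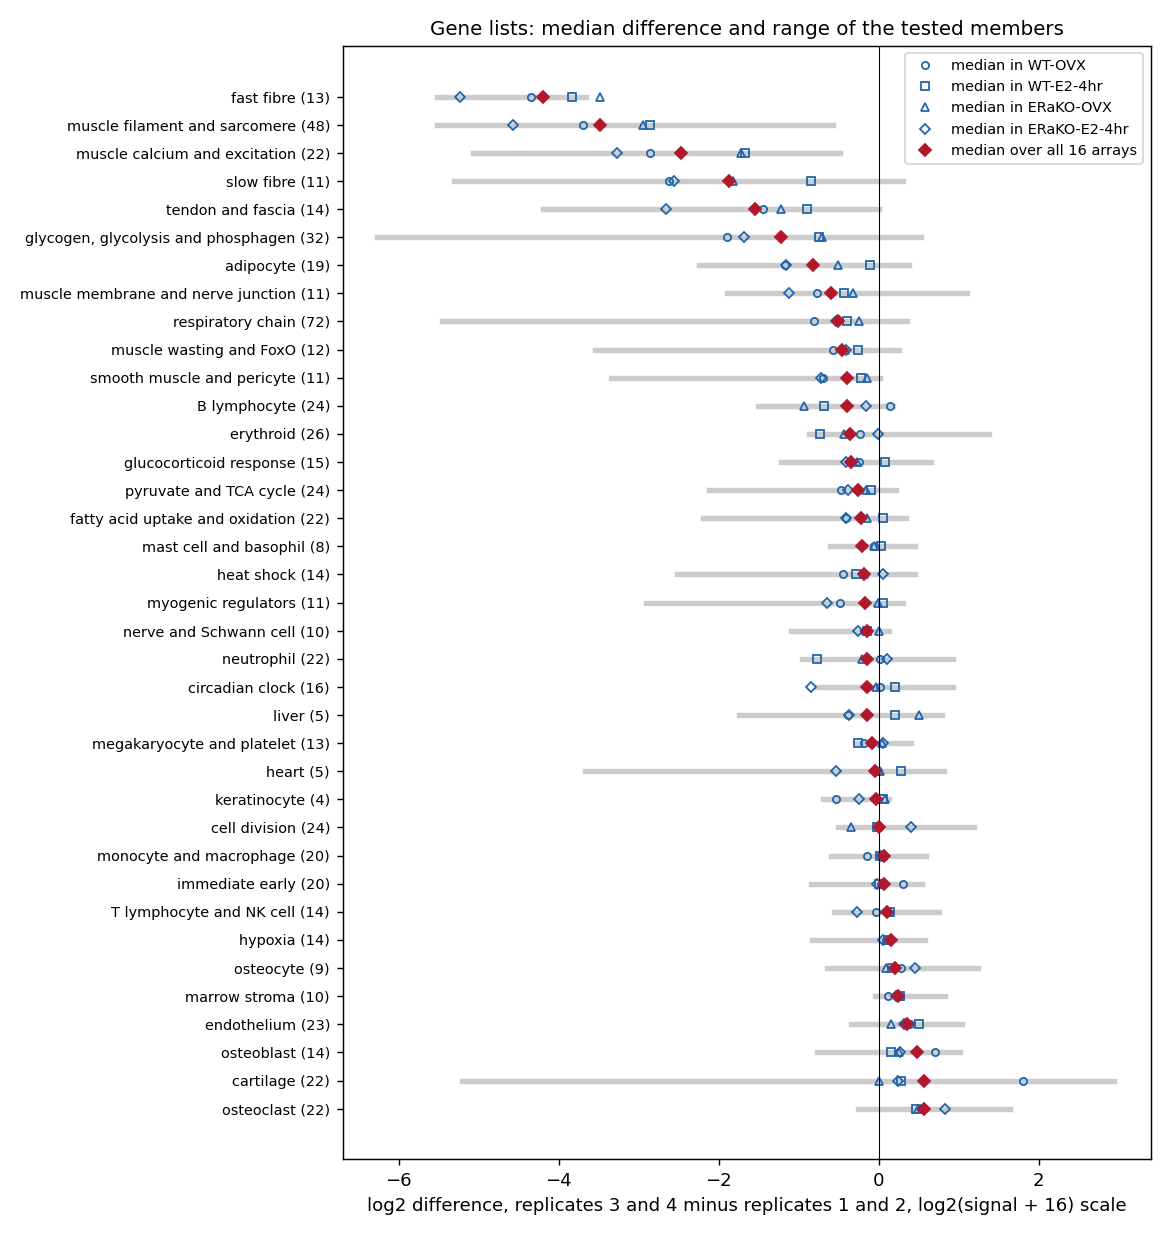
Median log2 difference (replicates 3 and 4 minus replicates 1 and 2, log2(signal + 16) scale) of each gene list; red diamonds are the fit over all 16 arrays, open blue symbols the medians within the 4 groups, grey bars the range of the tested members, and brackets their number. Fast fibre and sarcomere genes lie lowest, at medians of -4.19 and -3.48, and the osteoclast and cartilage lists lie highest, both at a median of 0.57, which is 0.46 and 0.11 without the 3 arrays brightest in spike-ins.

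Proteins with a muscle form and another form were compared within 22 pairs. The muscle form was lower in 21 of 22 and without overlap in 17, with a median of -3.35. Among these muscle forms Ampd1, Cox8b, Cox7a1 and Fbp2 passed the filter on low signal through replicates 1 and 2 only. Those 4 had to differ, so the count and median are a description of the pairs that passed. The other form was lower in 5, higher in 5 and did not pass in 12, with a median of 0.04. Pgam2, the muscle phosphoglycerate mutase, ran from 19.0 to 451 with a median of 104 in replicates 3 and 4, against 1392 to 20031 with a median of 3056 in replicates 1 and 2 (log2 difference -5.39 ± 0.46, limma adjusted p = 8.51e-07), next to 0.53 for Pgam1. Cox8b stood at -5.46 next to 0.36 ± 0.12 for Cox8a, which did not pass (limma adjusted p = 0.0519). Ckm stood at -4.60 next to 0.66 ± 0.18 for Ckb, the brain-type creatine kinase that osteoclasts also carry. Slc25a4, the muscle and heart form of the mitochondrial ADP and ATP exchanger, stood at -1.73 next to 0.61 ± 0.16 for Slc25a5. The exception was Hk2, the insulin-regulated hexokinase, at -0.34 ± 0.14 (limma adjusted p = 0.102). The Actb, Eef1a1, Cox6a1, Cox7a2 and Myl12a forms that were lower lost the call or turned under quantile normalization. There Actb gave 0.03, Cox6a1 0.02 and Eef1a1 0.38. Quantile normalization holds the brightest signals equal between arrays by construction, so for such bright genes these values do not test whether they differed. Actb was read from a 3' control probe set, and its 5 probe sets differed by -1.81 to -0.28.

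**Figure D4:**
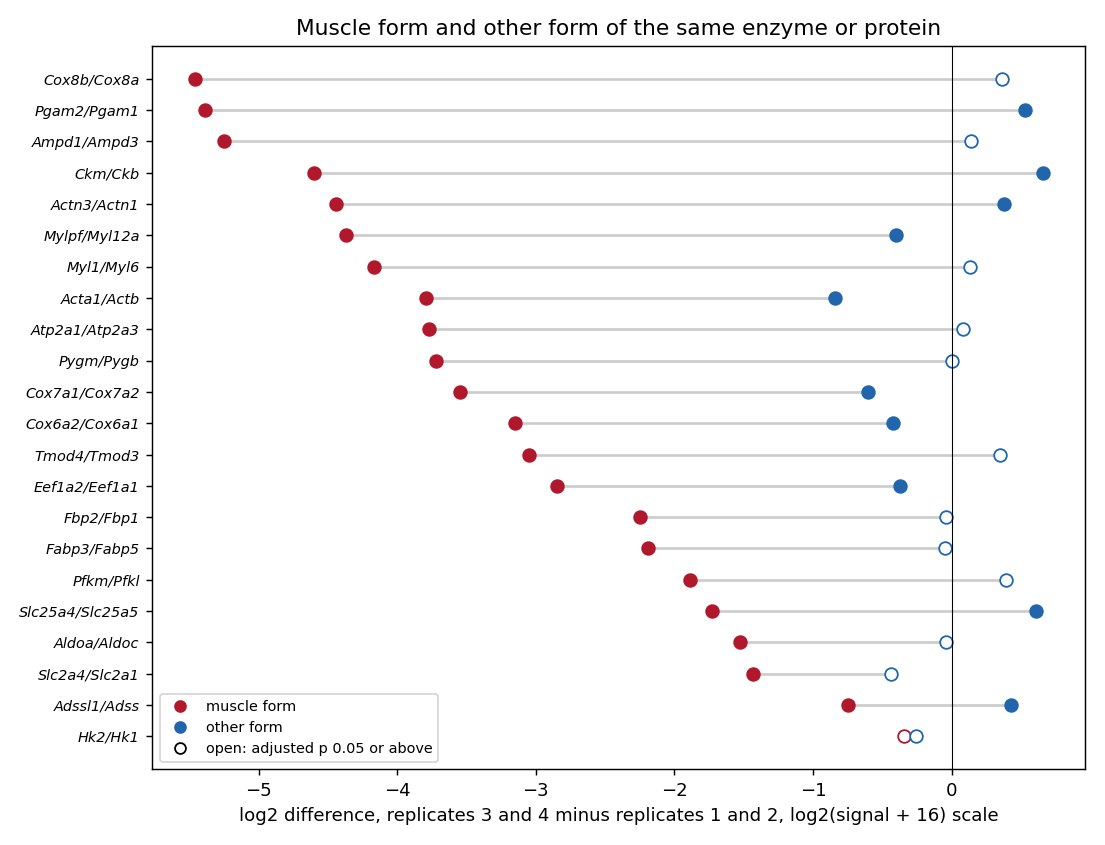
Log2 difference (replicates 3 and 4 minus replicates 1 and 2, log2(signal + 16) scale) of the muscle form (red) and the other form (blue) of 22 proteins; filled points passed limma at an adjusted p under 0.05 and open points did not. Muscle forms reach -5.46 while other forms lie between -0.84 and 0.66.

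Promoters are shown for 2 of these pairs and for 2 fast fibre genes, because the genes of a pair encode the same protein activity and moved differently while the fast fibre genes moved together. The stretches are the 250 bases before the annotated start from RefSeq (GRCm38.p6), 5' to 3' on the gene's strand, in lower case with 4 motifs in capitals: CAGCTG, an E-box that myogenic factors bind; the MEF2 motif; the CArG motif of serum response factor; and TATAAA. Both strands were searched. Pgam2 lies on the minus strand at chr11:5803797-5804046, Pgam1 on the plus strand at chr19:41911621-41911870, Cox8b on the minus strand at chr7:140900447-140900696 and Cox8a on the minus strand at chr19:7217617-7217866. Mylpf lies on the plus strand at chr7:127211358-127211607 and Myh4, a fast myosin heavy chain, on the plus strand at chr11:67237562-67237811.
Pgam2: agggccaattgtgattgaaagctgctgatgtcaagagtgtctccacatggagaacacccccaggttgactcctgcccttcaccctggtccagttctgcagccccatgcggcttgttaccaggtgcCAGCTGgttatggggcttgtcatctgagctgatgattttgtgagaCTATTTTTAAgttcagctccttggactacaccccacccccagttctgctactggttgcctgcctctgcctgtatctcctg
Pgam1: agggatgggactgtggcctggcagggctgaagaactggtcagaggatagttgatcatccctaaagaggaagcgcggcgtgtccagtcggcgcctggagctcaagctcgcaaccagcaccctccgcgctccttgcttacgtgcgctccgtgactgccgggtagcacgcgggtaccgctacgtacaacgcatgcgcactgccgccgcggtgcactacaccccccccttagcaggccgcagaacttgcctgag
Cox8b: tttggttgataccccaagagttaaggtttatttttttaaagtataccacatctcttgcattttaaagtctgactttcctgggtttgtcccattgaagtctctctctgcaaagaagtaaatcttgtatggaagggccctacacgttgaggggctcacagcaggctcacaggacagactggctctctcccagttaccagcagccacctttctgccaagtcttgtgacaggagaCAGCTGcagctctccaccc
Cox8a: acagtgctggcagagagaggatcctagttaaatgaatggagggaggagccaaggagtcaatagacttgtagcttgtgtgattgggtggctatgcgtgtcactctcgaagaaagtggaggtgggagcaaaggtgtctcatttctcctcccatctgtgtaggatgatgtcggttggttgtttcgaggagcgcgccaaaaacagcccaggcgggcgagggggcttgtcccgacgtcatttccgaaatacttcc
Mylpf: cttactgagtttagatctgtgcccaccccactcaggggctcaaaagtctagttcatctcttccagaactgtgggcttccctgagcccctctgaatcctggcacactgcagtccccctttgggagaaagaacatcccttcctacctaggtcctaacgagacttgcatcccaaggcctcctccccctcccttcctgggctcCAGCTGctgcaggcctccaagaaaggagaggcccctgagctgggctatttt
Myh4: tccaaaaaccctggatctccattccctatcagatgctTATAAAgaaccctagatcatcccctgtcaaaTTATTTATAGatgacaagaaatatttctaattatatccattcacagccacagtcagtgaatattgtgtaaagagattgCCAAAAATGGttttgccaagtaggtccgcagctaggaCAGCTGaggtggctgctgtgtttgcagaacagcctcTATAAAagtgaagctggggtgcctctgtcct
Counting from -1 at the last base before the start, CAGCTG began at -125 in Pgam2, -19 in Cox8b, -51 in Mylpf and -67 in Myh4, and neither Pgam1 nor Cox8a held any of the 4 motifs in this window. Over the pairs, CAGCTG was found in 9 of 23 promoters of muscle forms (39.1%; 18 of 22 genes matched) and in 1 of 24 promoters of other forms (4.17%; 19 of 22 genes matched), against 13% of 32851 promoters of the same length. The MEF2 motif was in 1 of 23 promoters of muscle forms and 1 of 24 of other forms (4.35% and 4.17%), and the CArG motif in 4.35% and 8.33%. The MEF2 motif was found in 3 of 11 fast fibre promoters (10 of 13 genes matched) and in 2.92% of all promoters, and in Myh4 its match overlapped a TATAAA. Among sarcomere genes 16 of 44 promoters (36.4%) held CAGCTG and 6 (13.6%) the CArG motif, while 1.47% of all promoters held the CArG motif. Respiratory chain promoters held CAGCTG in 6 of 65 (9.23%) and osteoclast promoters in 0 of 21. A match is a description of the letters and not a sign that a factor was bound.

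Soft tissues other than muscle were lower as well. Of 14 genes of tendon and fascia 11 were lower and 0 higher, with a median of -1.54. Dpt, dermatopontin of loose connective tissue, ran from 77.8 to 238 with a median of 130 in replicates 3 and 4, against 1005 to 9823 with a median of 2132 in replicates 1 and 2 (log2 difference -4.19 ± 0.36, limma adjusted p = 8.51e-07). Thbs4, a thrombospondin of tendon and muscle, differed by -3.88 ± 0.43, Kera, keratocan, by -3.67 ± 0.31 and Tnmd, tenomodulin, a marker of tendon cells, by -2.33 ± 0.36, each without overlap. Thbs4, Kera and Tnmd passed the filter on low signal through replicates 1 and 2 only, so they had to differ. Prg4, lubricin, made by synovium and the joint surface, ran from 95.8 to 1247 with a median of 243 in replicates 3 and 4, against 4538 to 43057 with a median of 11354 in replicates 1 and 2. Its log2 difference of -5.21 ± 0.49 (limma adjusted p = 2.03e-06) was among the 15 largest falls without overlap.

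Of 19 adipocyte genes 9 were lower and 1, Cebpa, higher, with a median of -0.82. Scd1, which desaturates fatty acids, ran from 913 to 2256 in replicates 3 and 4, against 2472 to 13959 in replicates 1 and 2 (log2 difference -1.74 ± 0.22, limma adjusted p = 5.93e-05). Fabp4, the adipocyte fatty acid binding protein, differed by -1.52 ± 0.27, by -2.05 in WT-OVX, -0.26 in WT-E2-4hr, -1.44 in ERaKO-OVX and -2.32 in ERaKO-E2-4hr. Adipoq, adiponectin, a hormone of adipocytes, differed by -0.37 ± 0.14 and did not pass (limma adjusted p = 0.0776). Without the 3 arrays brightest in spike-ins 6 members were lower, and Pck1 (-2.25 ± 0.58) and Cidec (-1.63 ± 0.42) lost their calls. Pmp22 and Scn7a, genes of Schwann cells, differed by -1.09 ± 0.23 and -1.05 ± 0.27, and 2 of 10 nerve genes were lower.

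Skin and liver genes served as lists of tissues that a dissected femur should lack. Of 12 keratinocyte genes 4 were bright enough to test, and 0 of the 4 passed by limma (1 at an unadjusted p under 0.05), with Krt5 at 0.06 ± 0.27 and Lor at -0.70 ± 0.25. Of 5 tested liver genes 1 was lower, Cyp2e1, which fat also makes (-1.74 ± 0.39). Summed over the 12 keratinocyte probe sets the signal was 0.00343% to 0.00981% of that of named genes in replicates 3 and 4, against 0.00455% to 0.00866% in replicates 1 and 2, so the sets overlapped.

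Osteoclast genes were higher in replicates 3 and 4. Of 22 tested members 16 were higher and 0 lower, with a median of 0.57, and 18 were positive within each of the 4 groups, against 19.3% of all tested genes. The summed signal of the list was 0.576% to 0.712% of that of named genes in replicates 3 and 4, against 0.286% to 0.478% in replicates 1 and 2, without overlap. Atp6v0d2, a proton pump subunit needed for osteoclast fusion, ran from 1766 to 3109 with a median of 2276 in replicates 3 and 4, against 432 to 980 with a median of 730 in replicates 1 and 2. Its log2 difference was 1.64 ± 0.15 (limma adjusted p = 2.03e-06) and lay between 1.38 and 2.00 in the 4 groups. Ocstamp, another fusion gene, differed by 1.59 ± 0.24, Oscar, a costimulatory receptor, by 1.25 ± 0.20 and Calcr, the calcitonin receptor, by 1.19 ± 0.23. Ctsk, cathepsin K, ran from 7226 to 13852 in replicates 3 and 4 and from 3295 to 8327 in replicates 1 and 2, and its log2 difference of 1.06 ± 0.15 (limma adjusted p = 1.50e-04) was between 0.99 and 1.15 in the 4 groups. Acp5, the acid phosphatase TRAP, differed by 0.84 ± 0.15 without overlap.

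Removal of the muscle and metabolic genes from the scaling changed these values little. The rescaling set a 2% trimmed mean, which leaves out the brightest probe sets of an array, muscle or not. This step therefore did not test the part of muscle in the osteoclast values. Rescaled to the other probe sets, the arrays moved by factors between 0.988 and 1.028, the osteoclast list still had 16 higher members and its median was 0.55. Without the 3 arrays brightest in spike-ins 14 members were higher and the median was 0.46.

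Genes of bone formation were divided. Of 14 osteoblast genes 5 were higher and 3 lower, with a median of 0.48. Sp7, osterix, the regulator of osteoblast fate, ran from 544 to 1995 with a median of 1727 in replicates 3 and 4, against 411 to 911 with a median of 721 in replicates 1 and 2 (log2 difference 1.02 ± 0.21, limma adjusted p = 0.00316). Ifitm5, a membrane protein of mineralizing osteoblasts, differed by 0.98 ± 0.25 and Alpl, the phosphatase of mineralization, by 0.89 ± 0.23; both lost their calls without the 3 arrays brightest in spike-ins, where 2 members were higher. Omd, osteomodulin, differed by -0.77 ± 0.19. Col1a1, type I collagen, also a gene of tendon, ran from 26331 to 29633 in replicates 3 and 4 and from 29882 to 37644 in replicates 1 and 2, without overlap, yet its log2 difference of -0.25 ± 0.09 did not pass (limma adjusted p = 0.0734). A second Col1a1 probe set differed by -0.90. Of 9 osteocyte genes 3 were higher and 1 lower. Phex, the endopeptidase of phosphate balance, ran from 1199 to 2826 in replicates 3 and 4, against 305 to 1145 in replicates 1 and 2 (1.24 ± 0.25), and Dkk1, a Wnt inhibitor, differed by 0.87 ± 0.23. Dmp1, a matrix protein of osteocytes, differed by 0.12 ± 0.13 on its brightest probe set and by up to 1.20 on the other probe sets.

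Of 22 cartilage genes 2 were higher (9.09%) and 2 lower (9.09%), close to the 9.18% and 9.38% of all tested genes, and 19 of the 22 differences were positive. Col10a1, the collagen of hypertrophic cartilage in the growth plate, ran from 1870 to 9151 with a median of 5067 in replicates 3 and 4, against 64.4 to 2963 with a median of 839 in replicates 1 and 2. Its log2 difference of 2.94 ± 0.65 (limma adjusted p = 0.00561) was 5.28 in WT-OVX, 1.86 in WT-E2-4hr, 1.30 in ERaKO-OVX and 3.34 in ERaKO-E2-4hr. Among the arrays brightest in spike-ins, ERaKO-E2-4hr-1 and WT-OVX-2 were the lowest of all 16 for Col10a1. Col11a2, a fibrillar collagen of cartilage, differed by 1.00 ± 0.32, while Cytl1, a cytokine-like protein of cartilage, differed by -1.76 ± 0.34, and Prg4 is the other lower member of this list. The median of the list was 0.57 over all arrays, 1.80 in WT-OVX and between 0.01 and 0.28 in the other groups. It was 0.11 without the 3 arrays brightest in spike-ins, where Col10a1 differed by 1.79, and Col11a2 (0.46) lost its call.

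Of 23 endothelial genes 9 were higher (39.1%) and 1, Vwf, lower (4.35%), with a median of 0.35. Among all tested genes 9.18% were higher and 9.38% lower. Flt4, a VEGF receptor of lymphatic and marrow sinusoid vessels, ran from 932 to 1358 in replicates 3 and 4 and from 609 to 806 in replicates 1 and 2, without overlap (0.65 ± 0.09, limma adjusted p = 1.64e-04). Sox18, a transcription factor of vessels, differed by 0.82 ± 0.12 and Clec14a, an endothelial lectin, by 1.04 ± 0.19. Pecam1, a vessel gene, differed by 0.45 ± 0.17 and did not pass (limma adjusted p = 0.0779). Without the 3 arrays brightest in spike-ins 6 members were higher and the median was 0.16. In the marrow stroma list 1 of 10 was higher (10.0%, against 9.18% of all tested genes). This was Csf1, the growth factor of macrophages and osteoclasts (0.83 ± 0.09, limma adjusted p = 1.02e-05). Its signal ran from 1470 to 1873 in replicates 3 and 4, against 751 to 1151 in replicates 1 and 2.

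Of 26 erythroid genes 3 were lower (11.5%) and 1 higher (3.85%), against 9.38% and 9.18% of all tested genes. Their median was -0.36. In 23 of the 26 the difference was negative, and in 14 (53.8%) it was negative within each of the 4 groups, against 17.0% of all tested genes. Slc4a1, the band 3 anion exchanger, was lower without overlap (-0.87 ± 0.19). Alas2, the first enzyme of haem synthesis in red cells, differed by -0.37 ± 0.14 and did not pass. Of 22 neutrophil genes 6 were lower and 1 higher. S100a8, a calprotectin subunit, ran from 36326 to 43667 in replicates 3 and 4, against 44646 to 165039 in replicates 1 and 2 (-0.91 ± 0.22, limma adjusted p = 0.0100), S100a9 differed by -0.96 ± 0.22 and Ngp, a granule protein, by -0.90 ± 0.20. Itgam, an integrin of myeloid cells, was higher by 0.93 ± 0.22, and Elane, elastase of early granules, differed by 0.44 ± 0.19 and did not pass.

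Those 3 granule and calprotectin genes are among the brightest on the arrays, and the brightest genes were lower as a class. Outside the muscle and metabolic lists, 54 of the 100 brightest genes were lower and 1 higher, with a median of -0.41, against 860 lower and 1091 higher of the 11478 genes below the brightest 100 and the next 900. Under quantile normalization, which gives each array the same distribution, 5 of the 100 were lower and 24 higher, with a median of 0.09. There S100a8 gave 0.03, S100a9 0.00 and Lcn2 0.17, 6 neutrophil genes were higher and 0 lower, and Slc4a1 and Ngp lost their calls. That method holds the brightest signals equal between arrays by construction, so these values do not test whether the brightest genes differed.

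Of 24 B lymphocyte genes 4 were lower (16.7%, against 9.38% of all tested genes) and 0 higher, with a median of -0.40. Ebf1, the regulator of early B cells, which fat progenitors also use, ran from 154 to 690 with a median of 449 in replicates 3 and 4, against 619 to 1389 with a median of 839 in replicates 1 and 2 (-1.11 ± 0.19, limma adjusted p = 9.41e-04). Jchain, the joining chain of antibodies, differed by -1.03 ± 0.17. Vpreb1, part of the receptor of B cell precursors, differed by -1.51 ± 0.64 and did not pass, with -4.37 in WT-E2-4hr and 0.03 in WT-OVX, and the median of the list ran from -0.93 in ERaKO-OVX to 0.14 in WT-OVX. Cd79a, the signalling chain of the B cell receptor, differed by -0.18 ± 0.27. Of 20 monocyte and macrophage genes 2 were higher and 3 lower, and of 14 T and NK genes 1 and 1. Of 8 mast cell genes 1 was higher and 0 lower, and of 13 megakaryocyte genes 0 and 0 by limma (2 at an unadjusted p under 0.05). The shares over all tested genes were 9.18% higher and 9.38% lower. Counts this small in lists this short describe the lists and are not a result about these cell types. The monocyte and macrophage list had 0 higher and 0 lower by limma without the 3 arrays brightest in spike-ins, and there Itgam (0.67) and Kit (0.24), the mast cell gene, lost their calls. Pf4, platelet factor 4, differed by -0.08 ± 0.11 and Csf1r, the receptor of Csf1, by 0.13 ± 0.11 on its brightest probe set and up to 1.05 on the others.

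Lists of processes gave small counts in both directions, against 9.18% higher and 9.38% lower among all tested genes. Cell division (8.33% each way), hypoxia (7.14% each way) and immediate early genes (5.00% lower) lay below these shares. The clock list had 6.25% higher and 12.5% lower. Of 24 cell division genes 2 were higher and 2 lower, and Mcm2, a subunit of the replicative helicase, ran from 4990 to 7337 in replicates 3 and 4, against 2124 to 4110 in replicates 1 and 2, without overlap (1.19 ± 0.09, limma adjusted p = 7.83e-07), while Mki67, a marker of cycling cells, differed by -0.37 ± 0.11. Of 20 immediate early genes 1 was lower, Nr4a1 (-0.84 ± 0.15). The clock list had 1 higher and 2 lower of 16, among them Dbp at -0.77 ± 0.25, and 4 of 15 glucocorticoid response genes were lower, led by Zbtb16 at -1.22 ± 0.23. Dbp (-0.62) and Cry2 (-0.51), the lower clock genes, lost their calls without the 3 arrays brightest in spike-ins. Of 14 heat shock genes 3 were lower and 2 higher, and the largest fall was that of Hspb8 (-2.52 ± 0.27), a small heat shock protein abundant in muscle. Among 14 hypoxia genes 1 was higher and 1 lower.

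Only 3 of the 15 largest rises without overlap were list members, against 15 of the 15 largest falls. The lists were chosen with earlier results of these data known and hold several muscle lists, so this contrast describes the lists. Chit1, a chitinase of macrophages, had the largest of these rises: it ran from 104 to 500 with a median of 297 in replicates 3 and 4, against 20.4 to 54.1 with a median of 36.8 in replicates 1 and 2 (2.56 ± 0.27, limma adjusted p = 6.51e-06). Thoc2l rose by 1.98 ± 0.30, Ffar4, a receptor of long-chain fatty acids, by 1.97 ± 0.35 and Lypd1 by 1.74 ± 0.35. Chit1, Thoc2l, Ffar4, Lypd1, Mtg2 and Xk passed the filter on low signal through replicates 3 and 4 only. Such genes had to differ, so their rises are a description of members that passed. Loxl4, a collagen cross-linking oxidase, was higher by 1.48 ± 0.30, Srd5a3, an enzyme of protein glycosylation, by 1.48 ± 0.21, Slc25a13, the mitochondrial aspartate and glutamate carrier, by 1.45 ± 0.31, and Slc9b2, a sodium and proton exchanger of osteoclasts, by 1.36 ± 0.13. Gask1b, Fgd6, Mtg2, Kif1b and Xk, a membrane protein of red cells, completed the 15 with Atp6v0d2 and Ocstamp, at 1.33 to 1.43 for these 5. Probe sets of some of these genes disagreed: those of Kif1b, a kinesin, went down to -0.97, of Mtg2 to -0.62 and of Lypd1 to -0.14, and with the mean of all probe sets Kif1b (0.04) and Mtg2 (0.35) did not pass. Of 41 named genes with several probe sets, 13 had a probe set of the opposite sign.

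Malat1, an abundant nuclear RNA that encodes no protein, had the largest difference of all tested genes in the upward direction and was singled out after its value was seen. It ran from 2492 to 20416 with a median of 17507 in replicates 3 and 4, against 489 to 4875 with a median of 1360 in replicates 1 and 2 (3.03 ± 0.49, limma adjusted p = 5.15e-04), and the sets overlapped. Within replicates 3 and 4 the signal was 3359 on ERaKO-OVX-4 and 2492 on ERaKO-E2-4hr-3, which also had the lowest 18S rRNA signals, 416 and 215. Within replicates 1 and 2 the highest Malat1 signal, 4875, was on ERaKO-E2-4hr-2, the array of highest 18S signal, 30653. WT-E2-4hr-2, the array of next highest 18S signal (22646), had a Malat1 signal of 1142. Between the sets the directions were opposite, with log2 differences of -3.14 for 18S and 3.03 for Malat1. These arrays were picked after their values were seen, and the relation was not tested. Of the 7 Malat1 probe sets 6 were higher, by 0.72 to 3.03, and 1 differed by -0.37.

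Within each set, the muscle signal was set against 6 genes of other tissues over 8 arrays, 12 relations in all. In replicates 3 and 4 no relation passed after adjustment, with Pecam1, a vessel gene, nearest (r = 0.81, exact permutation p = 0.0151, adjusted p = 0.0605; rho = 0.81, exact permutation p = 0.0218; r = 0.86 without the 2 arrays farthest from the median of Ckm). In replicates 1 and 2 Fabp4 rose with Ckm (r = 0.90, exact permutation p = 9.92e-05, adjusted p = 0.00119; rho = 0.98, exact permutation p = 3.97e-04), and r was 0.92 without the 2 arrays farthest from the median. Alas2 (r = -0.82, exact permutation p = 0.0127, adjusted p = 0.0605; rho = -0.76, exact permutation p = 0.0368) and Cd79a (r = -0.78, exact permutation p = 0.0231, adjusted p = 0.0693; rho = -0.71, exact permutation p = 0.0576) ran the other way and did not pass; without the 2 farthest arrays, ERaKO-OVX-1 and ERaKO-E2-4hr-1, r was -0.55 and -0.34. For Ctsk in that set r was 0.01. The arrays of a set come from 4 groups, so group differences are part of these relations, and 2 arrays of a group are too few for a value within it.

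**Figure D5:**
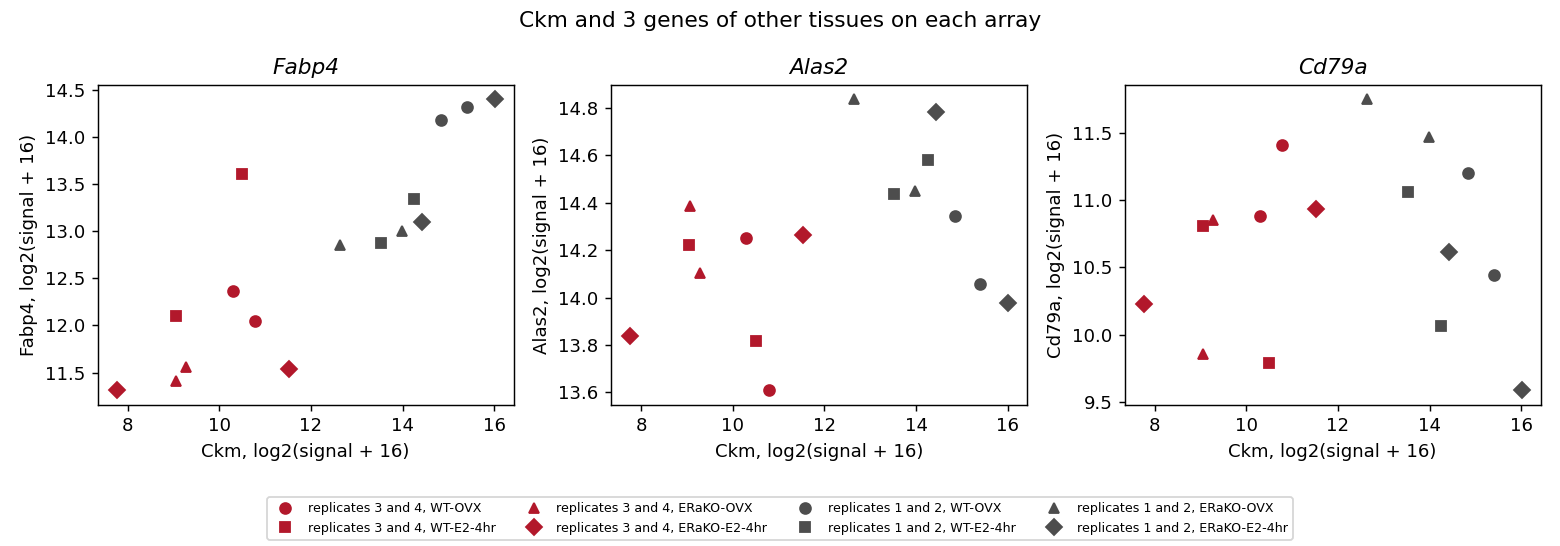
Fabp4, Alas2 and Cd79a against Ckm on each array, all in log2(signal + 16); red points are replicates 3 and 4, grey points replicates 1 and 2, and shapes mark the 4 groups. Among replicates 1 and 2 Fabp4 climbs with Ckm (r = 0.90) while Alas2 (r = -0.82) and Cd79a (r = -0.78) descend.

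The set difference was also asked for its dependence on estrogen and on genotype, with 1 mean per group and set. For treatment 0 of 12736 genes passed limma (0%), with 498 at an unadjusted p under 0.05, and for genotype 0 passed (0%), with 558, against 637 that 5% of the genes make. The smallest adjusted p was 0.960 for treatment and 0.624 for genotype. Among the genes of smallest p for treatment, Omd differed by -0.99 in WT-E2-4hr and -1.66 in ERaKO-E2-4hr, against -0.35 in WT-OVX and -0.07 in ERaKO-OVX, and Ecrg4, a secreted peptide of cartilage and other tissues, by -3.85 and -4.42 against -2.42 and -2.30 in the same order. For genotype Ankrd2, a stretch-responsive muscle protein, differed by -2.11 in ERaKO-OVX and -0.89 in ERaKO-E2-4hr, against -0.46 in WT-OVX and 1.20 in WT-E2-4hr. None of the 3 passed for its dependence. Sarcomere medians by group were -3.69 in WT-OVX, -2.86 in WT-E2-4hr, -2.94 in ERaKO-OVX and -4.57 in ERaKO-E2-4hr.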

How the data were processed

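Total RNA of 16 femurs was labelled and hybridized to Affymetrix mouse arrays, 1 per mouse. The authors made a linear intensity for every probe set in GCOS, which the submitters' processing notes name without a version. Their 2% trimmed mean was 500 on each array, and they were used as deposited. Sets were read from the number ending each title.

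Of 45101 probe sets 34958 had 1 gene in the platform annotation, 932 several and 9211 none, 64 being controls among these; 34754 matched the RefSeq table. Each of 18194 genes was taken at its probe set of highest mean signal, and the lowest 30% were left out (12736 tested, mean signal at least 121.3). limma 3.58.1 in R 4.3.3 fitted log2(signal + 16) with group and set as terms (11 residual degrees of freedom) and an intensity trend; the fit for dependence had 1 mean per group and set (8 degrees of freedom). Tests were two-sided, with Benjamini-Hochberg adjustment over all genes. Fits were tested on simulated data. The spread measured is that between mice. The number of arrays limits the precision.

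The members, the 37 gene lists, the 22 pairs tested and the tests were chosen with earlier results of these data known. Of 772 list genes 715 had a probe set and 644 were tested. Named were the 15 largest rises and falls without overlap, up to 4 passing members per list (2 brightest where none passed), the pairs, a fixed set of markers and 5 genes per dependence test. Alternatives covered scaling, pseudocount, filter, probe set choice, array weights, replicate block and left-out arrays.

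Groups share replicate numbers. Deviations from group means correlated between arrays of the same number at 0.190 to 0.603 (24 pairs), and likewise with the other number of the same set (0.0487 to 0.617). With the set taken out, number differences correlated at -0.173 to 0.296, 8 of 12 below 0, so no pairing beyond the set was seen.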

Additional observations from a re-analysis of the deposited data

Results flagged for a closer look

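Of 50 sets of 8 arrays examined for 1 array far from the others, 4 stood out, and chance flags about 1 in 20. Fabp4 had a signal of 12498 on WT-E2-4hr-3, against at most 5245 on the other arrays of replicates 3 and 4. Vpreb1 had 439 on ERaKO-E2-4hr-1, against at least 2312 on the other arrays of replicates 1 and 2. Csf1r had 14519 on WT-OVX-2, against at most 10791 in the rest of that set. The 18S rRNA 5' control probe set had 9105 on ERaKO-E2-4hr-1, against at least 19441 in the rest of that set. ERaKO-E2-4hr-1 also had the highest muscle share, 5.36%.

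Probe sets without a gene name were outside the main comparison, and 242 were higher and 187 lower in replicates 3 and 4 by limma, of 3728 tested.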

How the results depend on the processing

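With the replicate block as a fixed term 1066 genes were higher and 1127 lower, so the paired fit changed neither count by over 1.5 times; the random replicate block gave 1707 and 1593. Leaving out 1 array gave 706 to 1266 higher and 874 to 1295 lower; the lowest higher counts were without WT-OVX replicate 3 (706) and replicate 4 (754). Without the 3 arrays brightest in spike-ins 603 were higher and 726 lower. Within single groups, with 2 arrays against 2, 170 were higher and 328 lower in WT-OVX, 19 and 96 in WT-E2-4hr, 2 and 28 in ERaKO-OVX, and 163 and 445 in ERaKO-E2-4hr, on fewer arrays. The mean of probe sets gave 1320 and 823, and rescaling without muscle and metabolic genes 984 and 1301. For dependence on treatment 0 to 4 genes passed limma when 1 array was left out (4 without WT-OVX replicate 1) and 1 without the 3 arrays, a setting chosen after the data were seen; for genotype 0 to 5 (5 without WT-OVX replicate 1). Directions turned under quantile normalization for S100a9 (0.00), S100a8 (0.03), Pf4 (0.29), Lcn2 (0.17), Actb (0.03), Cox6a1 (0.02) and Eef1a1 (0.38); with the mean of probe sets for Abcc9 (0.00), Tfrc (0.86) and Rrm2 (0.16); and within WT-E2-4hr for Pck1 (0.74), Cidec (0.08), Thy1 (0.07), Klf9 (0.10) and Adssl1 (0.04), within ERaKO-OVX for Dbp (0.03) and within ERaKO-E2-4hr for Per3 (-0.16). The cause was not tested. Over 182 named genes, 149 kept direction and side of the threshold with the mean of probe sets, 25 lost the call and 5 gained it. The 7 control measures without the 3 arrays, and the 12 relations under median centring, kept their side of the threshold. Signals near the pseudocount limit the folds of the lowest genes.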
